A study of Mus musculus with 12 samples.

Results

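Lysosomal genes were followed through 4 treatments of mouse epiblast stem cells (EpiSCs), pluripotent cells that resemble the epiblast after implantation. The set holds 41 genes of 19938 tested. It was fixed as a list of names: 26 hydrolases, 8 membrane proteins, 2 soluble cofactors and 5 subunits of the V-ATPase. Each gene was read from the probe annotated to that gene alone, and from the one with the highest mean over all 12 arrays where there were several, which applied only to Arsb. The list was drawn up with results of these arrays known, among them the rise of Dpp7 with both compounds. The comparison of both compounds with untreated cells is therefore given as a description, and counts over the list support nothing further.

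The cells were of genetic background 129, and each group was read on 3 Affymetrix arrays. One label field calls them embryonic stem cells. All groups were starved of serum for 12 h, although a medium with 10% serum is also recorded for every sample. Untreated cells (NT in the labels) received no compound. The CHIR group received CHIR99021 at 3 µM for 2 h, the XAV group XAV939 at 2 µM, and the CHIR + XAV group both. The time with XAV939 is 2 h in the sample labels and 4 h in the design text, and which holds is not known. CHIR99021 inhibits GSK3 and so stabilises beta-catenin, and XAV939 inhibits tankyrase, which stabilises Axin and lowers beta-catenin. The study asked for the genes downstream of each compound. Whether a group's 3 samples were grown as separate cultures is not stated, and the p-values below therefore rest on a spread between samples that may be technical.

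Lysosomes are the acidic compartments in which cells break down proteins, lipids, glycans and nucleic acids. The V-ATPase pumps in protons, soluble hydrolases do the cleavage, and heavily glycosylated membrane proteins line and serve the organelle. Many of these genes carry an E-box of the CLEAR type (coordinated lysosomal expression and regulation) in the promoter, which is bound by TFEB, TFE3 and MITF. GSK3 and mTORC1 are both known to phosphorylate TFEB and hold it in the cytoplasm.

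The E-box could be read directly from the promoters. RefSeq sequences (GRCm38.p6) of 250 bases before to 50 after an annotated start were at hand for 35 of the 41 genes. The 6-letter core CACGTG, which reads the same on both strands, lay in a promoter of 17 of them (48.6%), against 9.5% of the 15614 tested genes with a promoter and 8.09% of all 27025 genes of the table. The longer form TCACGTG, searched on both strands and containing the core, was found in 15 (42.9%, against 5.35% of tested genes), and the palindrome TCACGTGA, which contains both, in 8 (22.9%, against 1.52%). By role, the 7-letter form was in 10 of 23 hydrolase genes, 3 of 7 membrane protein genes, 2 of 3 V-ATPase genes and neither cofactor gene. Among other lysosomal, V-ATPase and autophagy genes it was in 20 of 101 (19.8%). A match describes these letters in this window and is not a measured binding site. The members were listed as known targets of the TFE factors, which bind an E-box of this kind. Their higher share is therefore partly built into the list and is given as a description only.

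**Figure D1:**
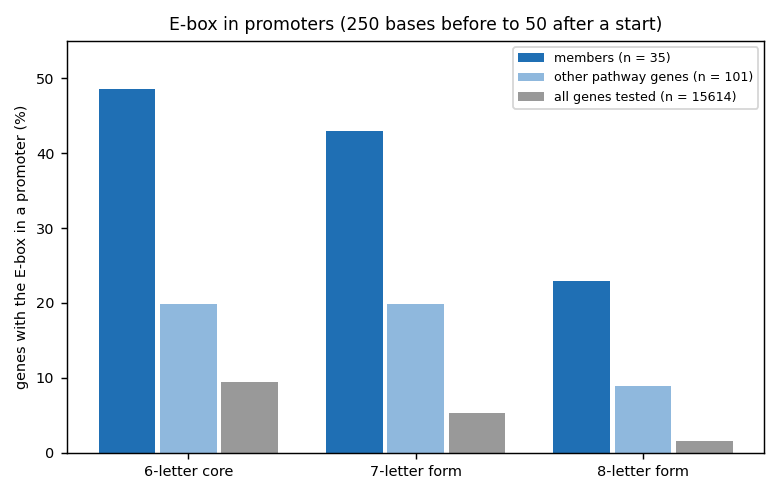
Share of genes (%) with the E-box core, the 7-letter form or the 8-letter form in a promoter, for the 35 members, 101 other pathway genes and 15614 tested genes with a promoter sequence. The members reach 48.6%, 42.9% and 22.9%, and all tested genes 9.5%, 5.35% and 1.52%.

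The promoters below are 6 of the 17 with the core, examples picked with their values known. Dpp7 and Gaa are leading members with 1 copy, and Glb1 is a further member with 1 copy. Atp6v1a has the palindrome and a small change, and Mcoln1 and Lamp1 have more than 1 copy. They run 5′ to 3′ on the gene's strand and end at the base before the annotated start, with each CACGTG in capitals. Dpp7 (chr2:25356333-25356432, minus strand) carried the palindrome once, Gaa (chr11:119267813-119267962, plus strand) and Glb1 (chr9:114400978-114401077, plus strand) had 1 core each, Atp6v1a (chr16:44139260-44139409, minus strand) the palindrome, Mcoln1 (chr8:3500419-3500518, plus strand) 2 cores and Lamp1 (chr8:13159061-13159160, plus strand) 4.
Dpp7: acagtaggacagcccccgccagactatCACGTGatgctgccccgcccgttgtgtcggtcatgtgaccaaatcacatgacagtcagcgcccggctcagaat
Gaa: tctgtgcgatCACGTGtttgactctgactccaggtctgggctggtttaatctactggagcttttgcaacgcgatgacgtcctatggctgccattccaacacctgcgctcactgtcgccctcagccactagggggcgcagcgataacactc
Glb1: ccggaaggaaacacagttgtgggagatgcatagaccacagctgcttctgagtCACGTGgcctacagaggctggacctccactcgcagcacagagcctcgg
Atp6v1a: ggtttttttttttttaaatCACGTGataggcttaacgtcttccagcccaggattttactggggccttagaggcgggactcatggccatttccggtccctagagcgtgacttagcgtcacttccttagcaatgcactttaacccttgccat
Mcoln1: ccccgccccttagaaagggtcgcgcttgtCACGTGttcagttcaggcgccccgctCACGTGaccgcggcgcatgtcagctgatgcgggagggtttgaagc
Lamp1: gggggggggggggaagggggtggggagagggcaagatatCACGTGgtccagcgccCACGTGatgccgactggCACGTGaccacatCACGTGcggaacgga

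The cells carried the marker genes of their label. The primed EpiSC markers Pou5f1, Sox2, Fgf5, Otx2, Dnmt3b, Zic2, Pou3f1 and Nodal all lay above 4.93, a rough background below which 95% of 1190 odorant and pheromone receptor genes had their mean. Below it lay 8 of 8 macrophage, 5 of 8 fibroblast, 5 of 10 visceral endoderm, 4 of 7 naive stem cell and 4 of 6 measured trophoblast markers. Thy1 at 7.54 and Lrp2 at 9.25 were the brightest of the fibroblast and endoderm lists. Their changes with both compounds, 0.11 and 0.16, did not pass, and Lrp2 was called higher in the average XAV939 change (0.29, limma adjusted p = 0.0438), whose part in the results for XAV939 was not tested. The brightest macrophage marker, Cd14, stood at 4.61. Axin2, a Wnt target used as a check of the treatment, averaged 7.0 in the CHIR group and 6.44 in the CHIR + XAV group, against 5.94 in untreated cells and 5.72 in the XAV group. Of the 8 genes listed for this check, Sp5, Tnfrsf19, Nodal, Fst and Nkd1 had the same order of group means. For Nkd1 these means spanned only 5.42 to 5.59. Znrf3 averaged 7.20 in the CHIR group and 7.25 in the CHIR + XAV group, against 6.58 untreated. Lef1 means ran only from 8.39 untreated to 8.48 in the CHIR + XAV group. Of the 41 lysosomal genes, 39 lay above the background measure and 2, Manba and Ctsh, below it. Means ran from 4.73 for Ctsh to 10.53 for Atp6v1b2, but probes differ in affinity, so these do not rank the genes by expression. In bulk RNA, a change in the number of cells of a type and in RNA per cell cannot be told apart.

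With both compounds, 35 of the 41 lysosomal genes lay above untreated cells, most by little. The median change was 0.13 on the log2 scale, against -0.01 over all genes tested. Dpp7 rose by 0.62, and Cd63, Gaa, Ostm1 and Atp6v0d1 had changes between 0.32 and 0.42 that did not pass. One member was called higher (limma adjusted p under 0.05 over all 19938 genes) and none lower, where 0.818% of all genes were called higher and 0.311% lower. That background itself hung on single arrays: the 163 higher and 62 lower genes became 10 and 3 without untreated replicate 3, 9 and 1 without replicate 2 of both, and 10 and 10 with array spread as a covariate. At an unadjusted p under 0.05, 18 members were higher and 0 lower, against 10% and 8.64% of all genes. In 16 members every array with both compounds lay above every untreated array, against 13% of all genes, and in 0 every array lay below, against 12%.

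Bright genes as a whole were higher with both compounds, and lysosomal genes are mostly bright. The median change of all genes was -0.09 in the fourth decile of mean signal and 0.10 in the seventh and eighth. It fell to 0.08 in the ninth and 0.03 in the tenth, which hold 9 members each. The standard deviation over all probes was 2.184 to 2.211 in arrays with both compounds and 2.135 to 2.184 in untreated ones. Each member was therefore also set against the median of its own bin among 20 bins of brightness. On that scale the median of the members was 0.08, and 32 of 41 lay above their bin. All genes weighted to the members' bins would have 16.8% at an unadjusted p under 0.05 and higher, where the members had 43.9%, and 21.8% with groups that do not overlap, where the members had 39.0%. In the lower direction these weighted shares were 4.82% and 6.55%, where the members had 0%. By role the median above the bin was 0.08 for hydrolases (17 of 26 above), 0.14 for membrane proteins (8 of 8), 0.08 for the cofactors (both above) and 0.07 for V-ATPase subunits (5 of 5).

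**Figure D2:**
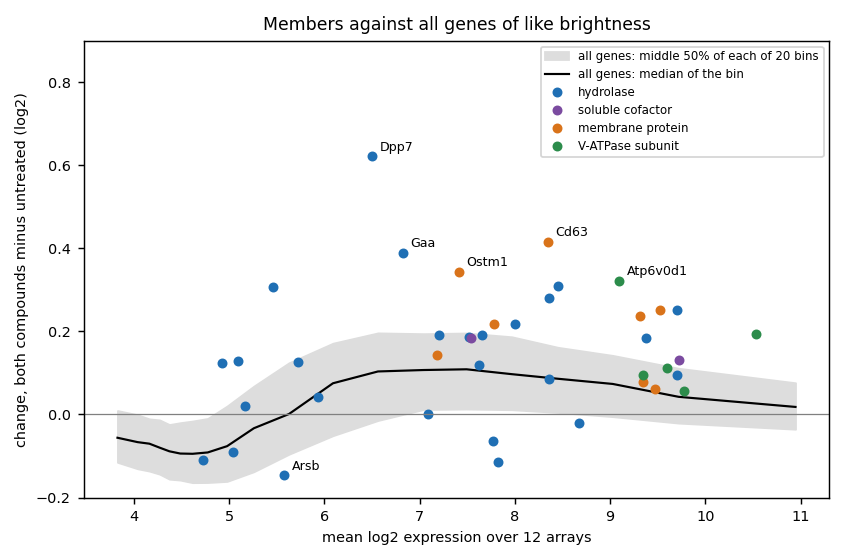
Change with both compounds minus untreated (log2) against mean log2 expression over 12 arrays for the 41 members, coloured by role, with the median and the middle 50% of all genes in 20 bins of brightness. Dpp7 stands at 0.62, and 32 of the 41 members lie above the line of their bin.

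**Figure D3:**
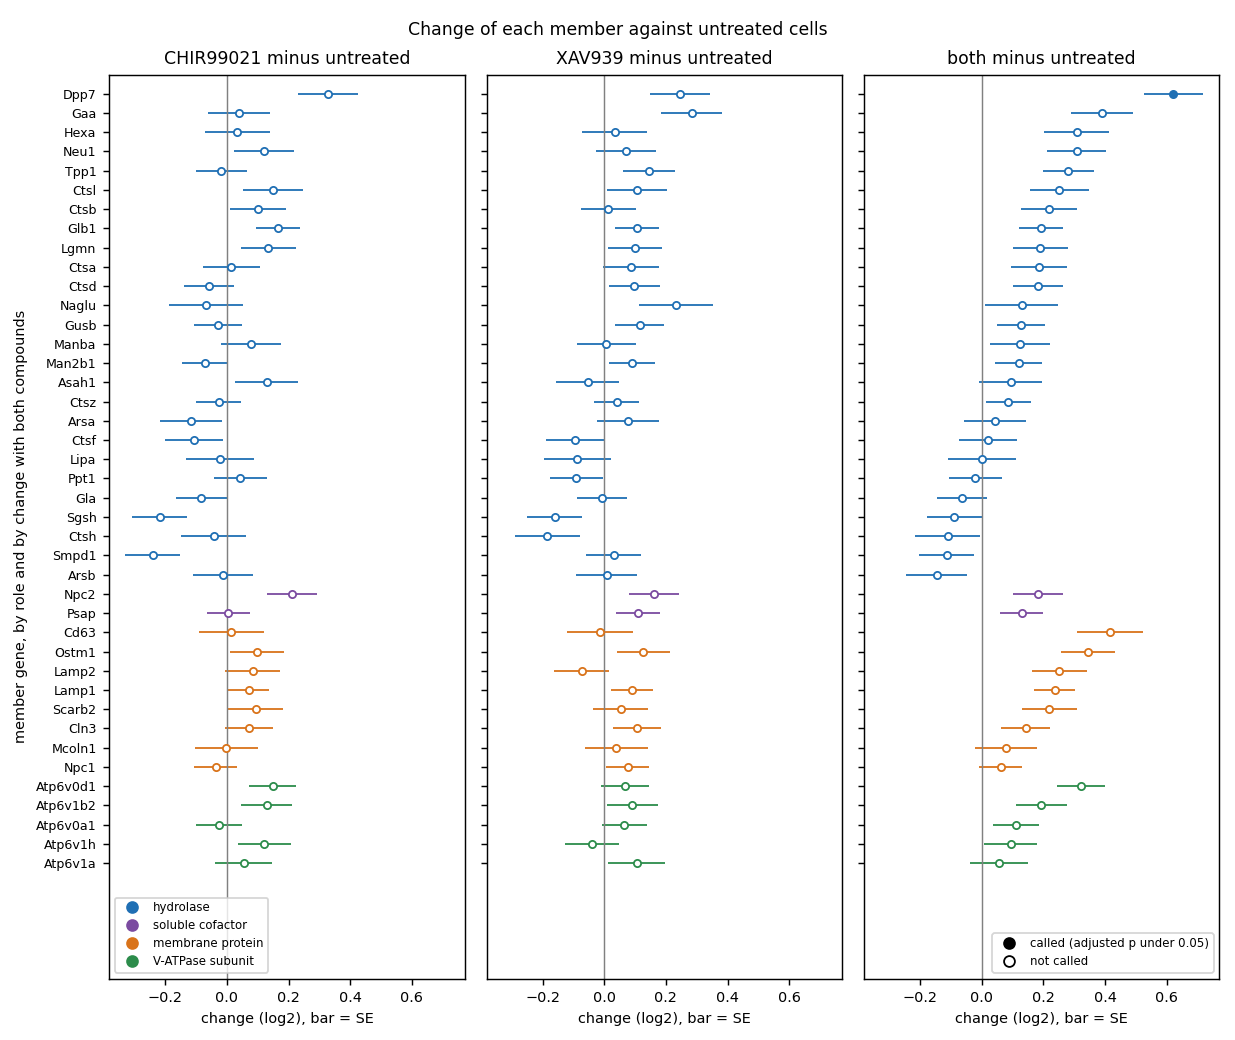
Change (log2, bar = SE of the limma fit) of each of the 41 members with CHIR99021, XAV939 and both compounds, each minus the same 3 untreated arrays, grouped by role. With both compounds 35 of 41 points lie to the right of 0, and the filled point is Dpp7, the one member called.

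Among the hydrolases, Dpp7 had the largest change in the set. It encodes dipeptidyl peptidase 7, a serine protease that removes dipeptides from the amino end of peptides. Its log2 values were 6.37, 6.21 and 6.03 in untreated cells, 6.38, 6.59 and 6.63 with CHIR99021, 6.58, 6.39 and 6.38 with XAV939, and 6.83, 6.90 and 6.75 with both. The untreated arrays were the lowest and those with both compounds the highest, with no overlap between these and any other group. Most genes given by array were picked by smallest p in these same arrays. How many of all genes show such a separation from every other array was not counted, here or below. Untreated cells averaged 6.20 ± 0.17 (SD, n = 3) and cells with both 6.82 ± 0.08, a difference of 0.62 (SE 0.10, limma adjusted p = 0.0113). The differences for CHIR99021 alone, 0.33, and XAV939 alone, 0.25, did not pass (limma adjusted p = 0.193 and 0.373). The call with both compounds ended without untreated replicate 3 (0.54, adjusted p = 0.0577) and without replicate 2 of both (0.58, adjusted p = 0.067), and with array spread as a covariate (0.50, adjusted p = 0.071).

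Gaa, acid alpha-glucosidase, which degrades lysosomal glycogen, was highest in the 2 groups that received XAV939. Untreated arrays read 6.85, 6.60 and 6.49, and those with CHIR99021 6.78, 6.57 and 6.70. The values were 7.02, 6.95 and 6.82 with XAV939 and 6.89, 7.07 and 7.15 with both. The groups with XAV939 overlapped the untreated arrays only through untreated replicate 1 at 6.85 and XAV939 replicate 3 at 6.82. Tpp1 encodes tripeptidyl peptidase 1, lost in a form of neuronal ceroid lipofuscinosis. It read 8.39, 8.25 and 8.12 untreated, 8.22, 8.18 and 8.31 with CHIR99021, 8.35, 8.52 and 8.32 with XAV939 and 8.58, 8.49 and 8.54 with both. Arrays with both compounds lay above all untreated and all CHIR99021 arrays and overlapped those with XAV939. Neu1, the lysosomal sialidase, read 5.22, 5.28 and 5.49 untreated and 5.36, 5.41 and 5.58 with CHIR99021. It stood at 5.38, 5.58 and 5.24 with XAV939 and at 5.63, 5.62 and 5.66 with both, above every other array. Against untreated cells the differences with both compounds were 0.39 (SE 0.10) for Gaa, 0.28 (SE 0.08) for Tpp1 and 0.31 (SE 0.10) for Neu1, and none passed (limma adjusted p = 0.0638, 0.0929 and 0.106).

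The other 22 hydrolases ranged from -0.15 (Arsb) to 0.31 (Hexa) with both compounds, and none was called. Arsb is the one member with 2 probes, and its value here and below is that of the brighter probe. With the mean of its probes its change was positive, and 36 of the 41 members were then positive in place of 35. Hexa, the alpha subunit of beta-hexosaminidase, had the highest of these, and the cysteine proteases Ctsl and Ctsb had 0.25 and 0.22. The aspartic protease gene Ctsd had 0.18, Glb1, the lysosomal beta-galactosidase, 0.19 and Lgmn, the asparaginyl endopeptidase, 0.19. Negative changes, none of which passed, were those of Arsb, Smpd1 (-0.11), Ctsh (-0.11), Sgsh (-0.09), Gla (-0.06) and Ppt1 (-0.02), which degrade glycosaminoglycans, sphingomyelin, peptides, heparan sulfate, globotriaosylceramide and fatty-acylated proteins. Ctsh, the dimmest probe, read 4.92, 4.63 and 4.89 untreated, 4.82, 4.82 and 4.67 with CHIR99021, 4.61, 4.42 and 4.85 with XAV939 and 4.69, 4.62 and 4.79 with both. All 4 groups overlapped, at a level near the background measure.

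Of the soluble cofactors, Npc2, which hands cholesterol to the membrane, read 7.51, 7.32 and 7.36 untreated and 7.70, 7.62 and 7.49 with CHIR99021. It stood at 7.46, 7.64 and 7.58 with XAV939 and 7.62, 7.59 and 7.53 with both, so the treated groups overlapped one another. Psap, the precursor of the saposins that help to degrade sphingolipids, read 9.69, 9.61 and 9.68 untreated and 9.70, 9.60 and 9.68 with CHIR99021. The values were 9.75, 9.83 and 9.73 with XAV939 and 9.71, 9.81 and 9.84 with both. Every array with XAV939, alone or with CHIR99021, lay above every array without it. The differences against untreated with both compounds were 0.18 (SE 0.08) for Npc2 and 0.13 (SE 0.07) for Psap and did not pass (limma adjusted p = 0.234 and 0.325).

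Each of the 8 membrane protein genes lay above untreated with both compounds, from 0.06 (Npc1) to 0.42 (Cd63), with none called. Cd63, a tetraspanin of late endosomes and lysosomes, read 8.36, 8.23 and 8.13 untreated, 8.26, 8.10 and 8.40 with CHIR99021, 8.25, 8.07 and 8.36 with XAV939 and 8.50, 8.84 and 8.63 with both. The 9 arrays without the pair of compounds overlapped fully, and the 3 with it lay above them. Its differences were 0.01 with CHIR99021, -0.01 with XAV939 and 0.42 (SE 0.11) with both, and the interaction, the excess of the CHIR99021 change when XAV939 was present, was 0.42 (SE 0.15) and did not pass (limma adjusted p = 0.965). Ostm1, a subunit that stabilises the chloride transporter encoded by Clcn7, read 7.40, 7.19 and 7.22 untreated and 7.45, 7.22 and 7.43 with CHIR99021. It stood at 7.34, 7.37 and 7.48 with XAV939 and at 7.53, 7.57 and 7.74 with both, above every other array. Lamp1, a major glycoprotein of the lysosomal membrane, read 9.22, 9.24 and 9.18 untreated, 9.30, 9.23 and 9.32 with CHIR99021, 9.27, 9.31 and 9.33 with XAV939 and 9.45, 9.39 and 9.52 with both. Again the arrays with both compounds lay above all others, a separation not counted over all genes. The differences against untreated were 0.34 (SE 0.09) for Ostm1 and 0.24 (SE 0.07) for Lamp1 (limma adjusted p = 0.0624 and 0.086; adjusted p = 0.0637 for Cd63). Lamp2 had 0.25, Scarb2, the receptor that carries glucocerebrosidase to the lysosome, 0.22, Cln3 0.14 and the calcium channel gene Mcoln1 0.08.

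All 5 V-ATPase genes had positive changes with both compounds, from 0.06 (Atp6v1a) to 0.32 (Atp6v0d1), with none called. Atp6v0d1, a subunit at the base of the membrane sector, read 9.0, 8.96 and 8.92 untreated and 9.17, 9.01 and 9.15 with CHIR99021. The values were 9.13, 8.95 and 9.01 with XAV939 and 9.21, 9.37 and 9.27 with both. Arrays with both lay above all others, and those with CHIR99021 alone lay above the untreated. Atp6v1b2, a catalytic-sector subunit and the brightest probe of the set, read 10.44, 10.36 and 10.49 untreated, 10.52, 10.48 and 10.67 with CHIR99021, 10.49, 10.63 and 10.45 with XAV939 and 10.50, 10.66 and 10.71 with both. Atp6v1h, a regulatory subunit of the same sector, read 9.24, 9.25 and 9.42 untreated, 9.34, 9.49 and 9.43 with CHIR99021, 9.28, 9.09 and 9.41 with XAV939 and 9.41, 9.36 and 9.42 with both. The treated groups overlapped one another for both genes. With both compounds Atp6v0d1 differed from untreated by 0.32 (SE 0.08), Atp6v1b2 by 0.19 (SE 0.08) and Atp6v1h by 0.09 (SE 0.09), and none passed (limma adjusted p = 0.0537, 0.222 and 0.575).

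**Figure D4:**
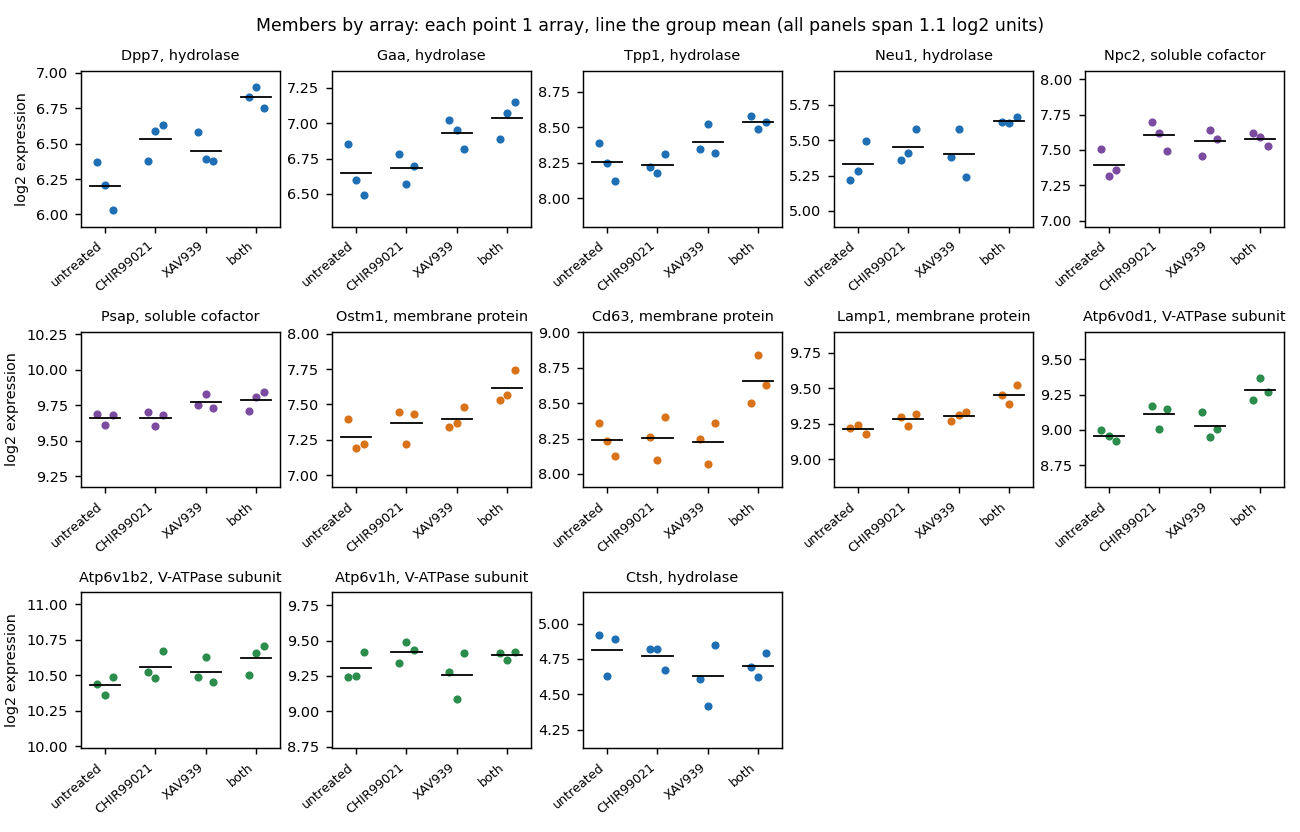
Log2 expression of 13 members in each of the 12 arrays (points) with the group mean (line), by treatment group, each panel spanning 1.1 log2 units. For Dpp7, Neu1, Ostm1, Cd63, Lamp1 and Atp6v0d1 the 3 arrays with both compounds lie above the 9 others. Most panels were chosen by smallest p in these same arrays, so this separation is partly built into the choice. Its share over all genes was not counted.

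With either compound alone the median change was smaller, a difference that was not tested. With CHIR99021 against untreated, 24 of 41 members were positive and the median change was 0.03, and 0.01 above the bins of like brightness. Leaving out any 1 array of either group moved it by over 1.5 times, between -0.003 without untreated replicate 2 (19 positive) and 0.07 without untreated replicate 1 (29 positive), so no direction is read from it. Limma called 0 members, where 0.256% of all genes were called higher and 0.166% lower. At an unadjusted p under 0.05, 3 were higher (Dpp7, Npc2 and Glb1) and 2 lower (Smpd1 and Sgsh), against 5.07% and 5.23% of all genes. Smpd1, acid sphingomyelinase, had the lowest change at -0.24 (limma adjusted p = 0.333). With XAV939 against untreated, 31 members were positive with a median of 0.07, or 0.03 above the bins. No member was called, where 0% of all genes were called, and 2 members (Gaa and Dpp7) had an unadjusted p under 0.05 and were higher, against 5.94% of all genes, and 0 were lower, against 5.3%. Groups did not overlap in 6 members that were higher and 1, Sgsh, that was lower, against 9.48% and 8.17% of all genes. All genes weighted to the members' bins of brightness would have 14.7% and 4.69%, where the members had 14.6% and 2.44%. For CHIR99021 the groups did not overlap in 3 higher and 3 lower members, against 8.09% and 8.25% of all genes. The weighted shares were 12.9% and 7.01%, where the members had 7.32% in each direction. At an unadjusted p under 0.05 the weighted shares were 8.01% higher and 4.54% lower for CHIR99021, and 8.76% and 3.05% for XAV939. These comparisons and that of both compounds share the 3 untreated arrays.

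The response to one compound in the presence of the other uses the same 3 arrays with both compounds as the description above, so these counts are not independent of it. Both compounds minus XAV939 gave 34 positive members, a median of 0.09 and 9 members at an unadjusted p under 0.05, all higher, against 4.92% of all genes higher and 4.77% lower. None was called, against 0.1% of genes called higher and 0.135% lower. Cd63 (0.43), Dpp7 (0.38), Lamp2 (0.32) and Atp6v0d1 (0.26) had the smallest p (limma adjusted p = 0.139, 0.164, 0.196 and 0.255). In 9 members the arrays with both lay wholly above those with XAV939 alone, against 6.94% of all genes, and in 0 wholly below, against 7.32%. All genes weighted to the members' bins of brightness would have 10.2% above and 6.09% below, where the members had 22.0% and 0%. At an unadjusted p under 0.05 the weighted shares were 7.41% higher and 4.42% lower, where the members had 22.0% and 0%. Both compounds minus CHIR99021 gave 35 positive members, a median of 0.13 and 10 at an unadjusted p under 0.05, all higher, against 6.66% of all genes higher and 4.3% lower. Limma called 0 members, against 0% of genes called higher and 0.0251% lower. Cd63 (0.40), Tpp1 (0.30), Gaa (0.35) and Dpp7 (0.29) led by p (limma adjusted p = 0.246, 0.252, 0.263 and 0.31). In 15 members, arrays with both lay wholly above those with CHIR99021, against 8.92% of all genes, and in 0 wholly below, against 7.18%. Here the weighted shares were 13.6% above and 4.25% below, where the members had 36.6% and 0%. At an unadjusted p under 0.05 they were 9.71% higher and 2.95% lower, where the members had 24.4% and 0%.

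The CHIR99021 change without XAV939 and with it came from 2 pairs of groups that share no array with each other, and can be set side by side, though together they include the arrays on which the list was drawn up. It had the same sign in 29 of 41 members, against 58.8% of all genes, with Pearson's r = 0.55 and Spearman's rho = 0.58 across members. Over all genes r was 0.35. The XAV939 change without and with CHIR99021 had the same sign in 33 of 41, against 62.4% of all genes, with r = 0.46 and rho = 0.39, and r over all genes was 0.33. These correlations are across genes, which are not independent, and describe these arrays. Dpp7 was high on all 4 axes. The interaction was positive in 32 of 41 members with a median of 0.07, against 0.00 over all genes. The median was 0.02 without replicate 3 of both and 0.03 without untreated replicate 1, each with 25 positive, and 0.04 without CHIR99021 replicate 2. No interaction passed for any member, where 0% of genes were called, and 2 members (Cd63 and Sgsh) had an unadjusted p under 0.05, against 2.53% of all genes higher and 2.41% lower.

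**Figure D5:**
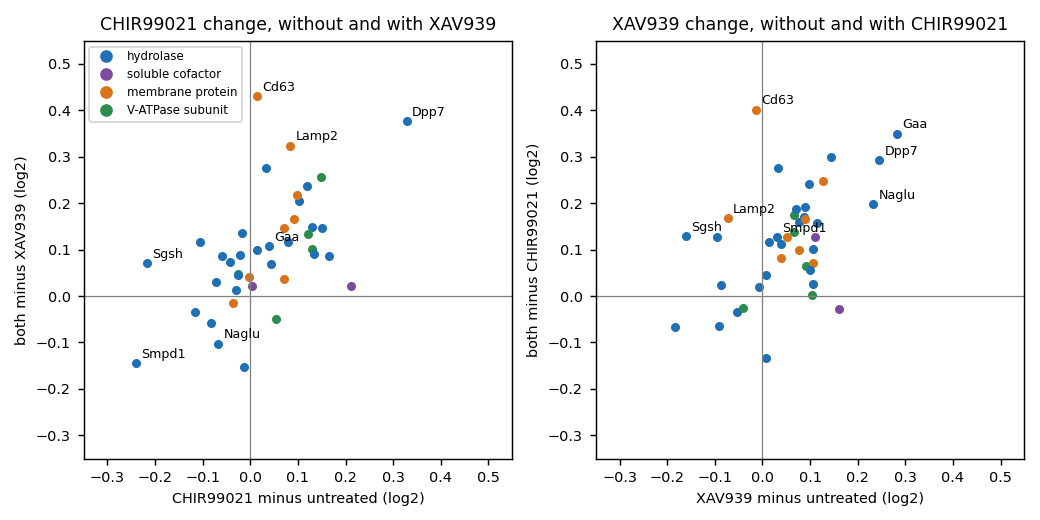
Change (log2) of each of the 41 members for CHIR99021 without (x axis) and with XAV939 (y axis), left, and for XAV939 without and with CHIR99021, right; the axes of a panel share no array. The sign is the same for 29 members on the left and 33 on the right, and Cd63 lies near 0 on both x axes and at 0.43 and 0.40 on the y axes.

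Averaging each compound's change over the absence and presence of the other compares 6 arrays with 6. For CHIR99021 the members' median was 0.06, with 32 positive, or 0.09 without untreated replicate 1 and 0.04 without untreated replicate 3. At an unadjusted p under 0.05, 10 were higher and 1 (Smpd1) lower, against 6.98% and 7.01% of all genes. All genes weighted to the members' bins of brightness would have 11.6% and 6.22%, where the members had 24.4% and 2.44%. Dpp7 was the one member called, with a change of 0.35 (SE 0.07, limma adjusted p = 0.0132), against 0.777% of all genes called higher and 0.818% lower (1.59% in all). This call uses the same arrays as the description above and ended without untreated replicate 3 and XAV939 replicate 2 together (0.29, adjusted p = 0.0735), the 2 arrays of narrowest spread, and with array spread as a covariate (0.28, adjusted p = 0.0817). For XAV939 the median was 0.09, with 34 positive, and 12 were higher at an unadjusted p under 0.05 and 0 lower, against 9.53% and 7.4% of all genes. Limma called 0 members, where 0.211% of genes were called higher and 0.12% lower. Gaa came nearest, with 0.32 (SE 0.07, adjusted p = 0.0617), followed by Dpp7 (0.27, adjusted p = 0.082) and Tpp1 (0.22, adjusted p = 0.0883).

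Members with and without the E-box were set side by side, with no test. In cells given both compounds, the median stood at 0.18 in the 15 members with the 7-letter form and 0.13 in the 20 without it. For the average CHIR99021 change the medians were 0.05 and 0.06, and for the average XAV939 change 0.12 and 0.10. The genes printed above all had the 7-letter form. With both compounds, Dpp7 with 1 palindrome had 0.62 and Atp6v1a with 1 palindrome 0.06. Mcoln1 with 2 cores, 1 of them within the palindrome, had 0.08. Gaa with 1 copy of the 7-letter form had 0.39, Glb1 with 1 copy 0.19 and Lamp1 with 4 copies 0.24.

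Other genes of the pathway came from a list of 125, of which 118 were measured and which, like the members, was drawn up with the rise of Clcn7 known. With both compounds 5 were called higher and 0 lower, against 0.818% and 0.311% of all genes, and the median of the 118 was 0.12, or 0.05 above the bins of like brightness. The 5 were the folliculin gene Flcn (0.47, SE 0.09) and its partners Fnip1 (0.60, SE 0.08) and Fnip2 (0.45, SE 0.10), which act with the Rag GTPases at the lysosome, Clcn7 (0.71, SE 0.13), and Vps33a (0.45, SE 0.08), a subunit of the complexes that tether late endosomes. Clcn7, whose protein pairs with that of Ostm1, read 6.54, 6.07 and 6.06 untreated, 6.63, 6.41 and 6.67 with CHIR99021, 6.72, 6.32 and 6.39 with XAV939 and 6.79, 7.02 and 7.0 with both. As for Ostm1, arrays with both compounds were above all others, a separation not counted over all genes. Of these 5 calls, only that of Fnip1 held without untreated replicate 3, without replicate 2 of both, or with array spread as a covariate, and those of Fnip1 and Vps33a held without untreated replicate 2 or replicate 3 of both.

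For the average CHIR99021 change, Clcn7, Fnip1, Flcn, Vps33a and the V-ATPase gene Atp6v1e1 (0.27, SE 0.06) rose, and Ulk1 (-0.34, SE 0.05), a kinase that starts autophagy, and Epdr1 (-0.33, SE 0.07) fell, against 0.777% of all genes called higher and 0.818% lower. The calls of Fnip1 and Ulk1 held without each array in turn and with array spread as a covariate, and each of the other 5 was lost without at least 1 array and with the covariate. With CHIR99021 alone Fnip1 rose by 0.47 and Ulk1 fell by 0.36, calls that were lost without any 1 array of the untreated or CHIR groups, except that of Ulk1 without CHIR99021 replicate 1. In the presence of XAV939, CHIR99021 raised Fnip1 (0.60) and Plbd2 (0.41), a phospholipase-like lysosomal protein, of which Fnip1 held without each array in turn and Plbd2 did not. No pathway gene was called for XAV939 alone, for both compounds against CHIR99021, for the interaction or for the average XAV939 change. At an unadjusted p under 0.05 the last of these had 31 of 118 higher and 3 lower, against 9.53% and 7.4% of all genes, and the median above the bins of like brightness was 0.04. The 4 TFE factor genes Tfeb, Tfe3, Mitf and Tfec were not called in any of the 8 comparisons.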

How the data were processed

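The authors deposited 1 value per probe and array for 35399 probes, read here as log2 expression; the base was inferred from their range, 2.52 to 14.3. Per the submitters' processing notes the authors used Partek, whose version, background correction and normalization are not given in the sources used here. The medians of the arrays were between 5.22 and 5.27, and no further normalization was applied. Of the probes, 21789 had 1 gene symbol in the platform annotation, 1621 several and 11989 none, and 91 of the 21789 had no match in RefSeq. Group means were fitted to all 12 arrays and 19938 genes with limma 3.58.1 (lmFit, eBayes, two-sided) in R 4.3.3, with Benjamini-Hochberg adjustment over all genes in each of 8 contrasts. The fit was tested on simulated data with independent noise for each gene. These held no array-wide shifts, so the dependence of calls on single arrays was not covered. Values by array are given for called members, the members of smallest p in each role, and the brightest and dimmest. The members, lists and tests were chosen with earlier results of these data known. Arrays carry no read depth, and 3 per group limit the precision. Alternatives were 3 normalizations, 2 filters, probe means, pairwise fits, eBayes with trend, array weights, a spread covariate, a replicate block, a fold threshold and left-out arrays. Figures used matplotlib 3.10.9.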

Additional observations from a re-analysis of the deposited data

How the results depend on the processing

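The median change of the members moved by less than 0.0718 in each contrast and setting. That figure is the standard deviation within groups of the members' median level in each array. It measures a level rather than a change and is larger than several of the medians, so moving by less says little. For CHIR99021 against untreated the median change ran from -0.003 to 0.07 over single left-out arrays. It ran from 0.02 to 0.09 for the interaction and from 0.04 to 0.09 for the average CHIR99021 change. With both compounds it was between 0.11 and 0.18, with quantile normalization 0.11 and with cyclic loess 0.11. The count of members called did move. With both compounds against untreated it was 5 with median centring, 3 and 6 with filters at the 25th percentile and the median, 2 with trend and robust moderation, 5 with array weights, and 0 with the array standard deviation as a covariate or without untreated replicate 3 and XAV939 replicate 2 together. Leaving out single arrays gave 0 to 3: 0 without untreated replicate 3 or replicate 2 of both, 2 without XAV939 replicate 2 and 3 without untreated replicate 1. For the average CHIR99021 change it was 2 with the median filter and 0 with the covariate, without those 2 arrays, or at a fold of at least 1.5. For the average XAV939 change it was 1 (Gaa) with either filter or array weights, and 0 or 1 without single arrays (1 without untreated replicate 1). The median filter left 36 members. No change that was called turned sign. Over all genes, the calls with both compounds, 163 higher and 62 lower, became 59 and 44 with quantile normalization and 324 and 58 with median centring, and fell to 9 and 1 without replicate 2 of both. For the average XAV939 change, 42 and 24 became 4 and 10 with quantile normalization, 1 and 2 with a replicate block, and 0 and 2 without untreated replicate 3. Same-numbered arrays of different groups correlated between -0.25 and 0.20 in their deviations from group means, so the numbers were not taken as pairs; with a replicate block 1 member was called with both compounds, 1 for the average CHIR99021 change and 0 for the average XAV939 change.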
